A study of Homo sapiens and Mus musculus with 9 samples.

Results

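Ribosome footprints of starved HEK293 cells that had been transfected with a trans-RNA against ATF4 (starvation trans1) were set against footprints of starved HEK293 cells (starvation), with 1 library on each side. The members were all transcripts listed in both libraries, 12981 of the 16984 transcripts listed in at least 1 of the 4 Ribo-seq libraries of the series. Within a transcript the deposited densities are whole multiples of what 1 read is worth, and this gave a read number for 8709 of the 12981. The other 4272 had too few positions with reads or no settled length and are not described further. Both groups are HEK293, a human embryonic kidney line, labelled WT and grown under starvation, and they differ in the transfection of the trans-RNA. Starved cells that received a control RNA were not analysed here, so the act of transfection and the trans-RNA cannot be told apart. A further library, starvation trans2, carries the same treatment label, and a library labelled control completes the Ribo-seq set. The labels give no trans-RNA sequence, and HEK293 RNA-seq was not analysed here, so a change in mRNA level and a change in translation cannot be told apart. Nothing here is replicated, and no test of a difference was possible.

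Ribosome profiling sequences the stretch of mRNA that a ribosome protects from nuclease, so the number of footprints on a transcript reports how many ribosomes sat on it. Under starvation and other stresses, phosphorylation of the initiation factor eIF2 lowers general initiation while it favours the main frame of ATF4, a transcription factor whose mRNA carries upstream reading frames that divert scanning ribosomes. The trans-RNAs of this series were directed at the main frame of that mRNA. No table used here pairs a transcript with the symbol ATF4, so its footprints are not given by name.

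The 8709 transcripts held 6022835 reads in starvation trans1 and 9221760 reads in starvation. Symbols were known for 2493 of them. A level is given as reads per 1000000 recovered reads of the library (CPM), and a ratio as log2 of CPM + 1 in starvation trans1 over CPM + 1 in starvation. In brackets stand exact 95% binomial intervals of the ratio of reads, which cover counting error only. Of the HEK293 markers, NEFL stood at 76.7 and 77.0 CPM in starvation trans1 and starvation, and LIN28B at 34.2 and 42.2 CPM. None of the 12 markers of other cell types had a read number. Only COL1A1 of these has a symbol in the files, so that check is limited.

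Most footprints were spread over the transcripts much as in starvation. The median log2 ratio of all 8709 transcripts was -0.08, with the middle 90% between -0.64 and 0.60, and 40.6% of them lay above 0. In starvation trans1, 77 transcripts (0.884%) were at least 2-fold higher and 54 (0.62%) at least 2-fold lower. For each of these 131 the counting interval lay on the same side of 0, which says nothing of the spread between cultures. Of the transcripts at least 2-fold higher, 19 had a symbol, and of those at least 2-fold lower, 10. The balance of higher against lower turned with the reads that were counted. With footprints of the coding region inside the deposited windows alone, 207 (2.38%) were at least 2-fold higher and 258 (2.96%) at least 2-fold lower. Among the 77, 70 were also above 0 in these coding footprints and 7 were not, whereas all 54 lower ones were below 0.

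**Figure D1:**
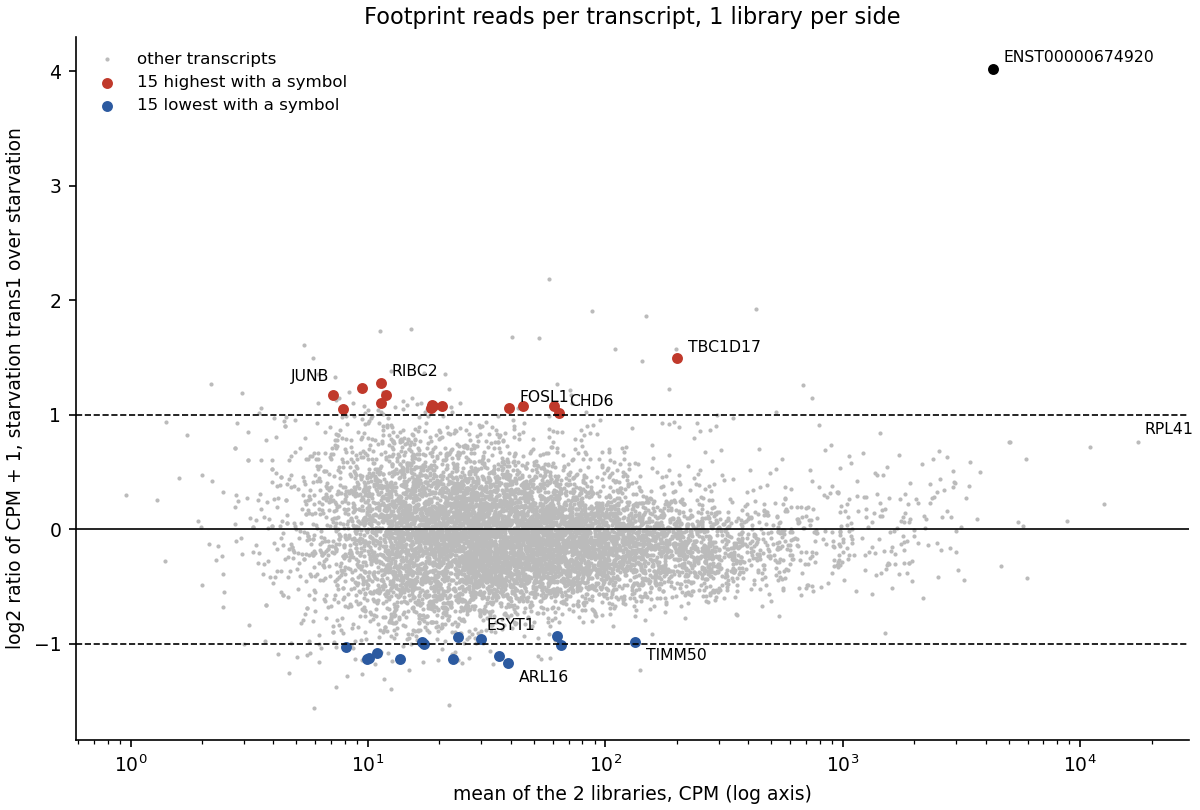
Each point is 1 of 8709 transcripts; the horizontal axis is the mean CPM of both libraries on a log scale and the vertical axis the log2 ratio of starvation trans1 over starvation, with dashed lines at a 2-fold difference. One transcript without a symbol, ENST00000674920, stands at 4.02, and RPL41 is the most abundant mRNA.

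The largest gain by far was on ENST00000674920, a transcript for which no table used here gives a symbol, with a recovered length of 1056 nt. It had 48548 reads in starvation trans1 and 4570 in starvation, or 8061 and 496 CPM. The log2 ratio was 4.02 (3.98 to 4.07), against 2.19 for the next transcript without a symbol in the ranking, ENST00000348159. In starvation trans2 it had 34540 reads (4688 CPM) and in the control 3073 reads (294 CPM), so both trans-RNA libraries were high on it. The transcript took up 0.806% of all recovered reads in starvation trans1 and 0.0496% in starvation.

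The fold was highest at the beginning of the coding region and just before it. From 15 to 1 nt before the start codon it had 12225 reads in starvation trans1 and 371 in starvation, 50.5-fold more after scaling to library totals (45.5 to 56.1). Over coding nt 0 to 99 there were 20683 and 758 reads, 41.8-fold more (38.9 to 45.0). Over the next 100 coding nt the gain was smaller, with 203 and 78 reads, 3.98-fold more (3.05 to 5.24). Over coding nt 200 to 300 starvation trans1 had 115 reads and starvation 244, a ratio of 0.722 (0.573 to 0.904), and over the last 300 coding nt there were 977 and 1665 reads, a ratio of 0.898 (0.829 to 0.973). Outside the windows, which leave out the middle of the coding region and the distant untranslated parts, there were 12230 and 1366 reads, 13.7-fold more (13.0 to 14.5), and the files do not place these reads. After the stop codon there were 45 and 24 reads, 2.87-fold more (1.71 to 4.93).

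The footprints at its start were mostly out of the main frame. Between 30 nt before and 75 nt after the start codon, 59.0% of footprints in starvation trans1 and 74.5% in starvation began in frame 2 (counting the start codon's first base as frame 0). Frame 0 held 33.1% in starvation trans1 and 18.1% in starvation. From coding nt 756 to 1040, the last 300 coding nt without their end, frame 0 held 65.8% in starvation trans1 and 82.0% in starvation. The single highest position in starvation trans1 lay 3 nt before the start codon, with 4733 reads, followed by 3237 reads at position 11 and 3168 at position -1. Starvation trans2 had its highest counts at positions 11, with 3270 reads, and -1, with 2041 reads, and so did the control, with 225 and 83 reads. The position with most reads on this transcript in starvation was 939, with 175 reads.

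**Figure D2:**
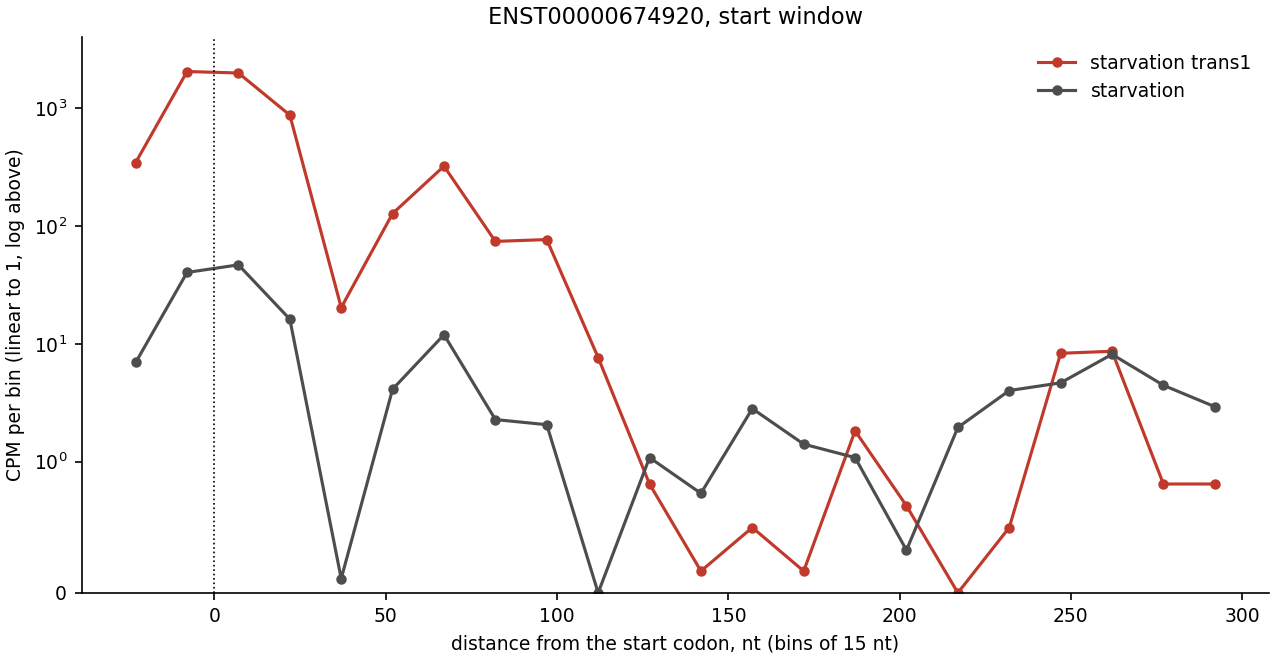
CPM in bins of 15 nt along the start window of ENST00000674920, with the distance from the start codon on the horizontal axis and a vertical axis that is linear to 1 and logarithmic above. Starvation trans1 is above starvation in every bin from 30 nt before the start codon to 119 nt after it, and the lines cross beyond.

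Among named mRNAs with at least 10 CPM in 1 library and no position above 50% of their window reads (2341 mRNAs), the 15 highest had log2 ratios from 1.02 to 1.49, and the next stood at 0.99. A pair of AP-1 transcription factor subunits was among them. JUNB had 82 reads in starvation trans1 and 48 in starvation (13.6 and 5.21 CPM), a log2 ratio of 1.24 (0.86 to 1.93). FOSL1 had 323 and 233 reads (53.6 and 25.3 CPM), a log2 ratio of 1.06 (0.84 to 1.34). Both were also above 0 in coding footprints, at 0.86 for JUNB and 0.88 for FOSL1. So were the chromatin remodellers CHD2 and CHD6. CHD2 had 369 reads in starvation trans1 and 263 in starvation, a ratio of 1.08 (0.87 to 1.34), and CHD6 had 514 and 384 reads, a ratio of 1.02 (0.84 to 1.23).

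Several of the other high mRNAs were covered by few reads. RIBC2, a protein of ciliary microtubules, had 99 reads in starvation trans1 and 57 in starvation, a log2 ratio of 1.28 (0.93 to 1.91). DKK1, a secreted inhibitor of Wnt signalling, had 62 and 37 reads, a ratio of 1.17 (0.75 to 1.99). SIX4, a homeobox factor, had 154 and 106 reads, a ratio of 1.09 (0.79 to 1.52). The centromere protein CENPI (1.07), the sulfurtransferase MOCS3 (1.07), the microtubule-binding MDM1 (1.06), the zinc finger protein ZNF184 (1.18), the transposase-derived TIGD7 (1.10) and PALM2AKAP2 (1.05) complete the set, all above 0 in coding footprints too. These 15 mRNAs had a median of 107 reads in starvation.

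TBC1D17 and DTX4 were high by all reads but not by coding footprints. TBC1D17, a GTPase-activating protein for Rab GTPases, had 1786 reads in starvation trans1 and 965 in starvation, the highest log2 ratio with a symbol at 1.49 (1.39 to 1.62). Only 24 and 49 of these reads were coding footprints in the windows, and by those the log2 ratio was -0.36. DTX4, a ubiquitin ligase of the Notch pathway, had 497 and 357 reads (log2 ratio 1.07), of which 13 and 38 were coding footprints, with a log2 ratio of -0.76. Whether the remaining reads lie in the middle of the coding region or outside it is not recorded in windows of this size. Over all transcripts, 81 had less than 10% of the window reads that an even spread would give, in at least 1 of the libraries, and they held 2.83% of reads in starvation trans1 and 2.08% in starvation.

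The 15 lowest named mRNAs had log2 ratios from -1.17 to -0.93, and all 15 were below 0 in coding footprints. ARL16, an ARF-like small GTPase, had 142 reads in starvation trans1 and 501 in starvation (23.6 and 54.3 CPM), a log2 ratio of -1.17 (-1.48 to -0.93). BPNT1, which removes phosphate from adenosine bisphosphates, had 84 and 293 reads, a ratio of -1.13 (-1.56 to -0.83). YIF1A, a protein of transport between endoplasmic reticulum and Golgi, had 259 and 807 reads, a ratio of -1.01 (-1.23 to -0.82). These were lower over start and stop windows alike, with ARL16 at -1.18 and -1.46, BPNT1 at -1.19 and -2.20, and YIF1A at -0.76 and -1.46.

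The other low mRNAs encode proteins of varied function. TIMM50, a subunit of the translocase that imports proteins into mitochondria, had the most reads of the set, 540 in starvation trans1 and 1641 in starvation, a log2 ratio of -0.98 (-1.13 to -0.85). ESYT1, a tether between endoplasmic reticulum and plasma membrane, had 257 and 759 reads, a ratio of -0.93 (-1.16 to -0.74). The lysosomal mannosidase MAN2B1 was at -0.98, the acyltransferase AGPAT3 at -0.96, ILVBL at -1.11, the monocarboxylate transporter SLC16A7 at -1.14, the membrane-anchored protease inhibitor RECK at -1.12 and the G protein subunit GNG7 at -1.14. WRAP53, a telomerase component (-1.08), the Wnt pathway factor TCF7L1 (67 and 215 reads), MANSC1 (-1.02) and TTC38 (-0.94) were the others. RECK rested on 36 and 131 reads and stood at -0.39 in coding footprints. MANSC1 (30 and 103 reads), GNG7 (35 and 129), WRAP53 (40 and 140) and SLC16A7 (49 and 176) were also thinly covered. MAN2B1 had 66 and 209 reads and was at -0.27 without its highest position. The lowest transcripts without a symbol were ENST00000374897 at -1.54 and ENST00000672498 at -1.39.

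Ribosomal protein mRNAs were the most abundant group that stood above the rest. Of 81 in the list, 39 were measured, and 32 of these had a higher level in starvation trans1 and 7 a lower one, with a median log2 ratio of 0.27 against -0.08 for all transcripts and none past 2-fold. Together they made up 10.9% of recovered reads in starvation trans1 and 8.25% in starvation, beside 8.47% in starvation trans2 and 9.61% in the control. The acidic stalk proteins RPLP1 and RPLP2 and the small basic RPL41 and RPL38 led. RPLP1 had 1842 CPM in starvation trans1 and 1027 CPM in starvation, a log2 ratio of 0.84 (0.80 to 0.88). RPLP2 had 6282 and 3697 CPM, a ratio of 0.76 (0.74 to 0.79). RPL41, the most abundant mRNA of the set, had 22082 and 13016 CPM, a ratio of 0.76 (0.75 to 0.77). The ratios of these mRNAs in coding footprints were 0.85 for RPLP1, 0.77 for RPLP2 and 0.77 for RPL41. RPL38 was at 0.76 (0.74 to 0.78), with 59.9% of its window reads in starvation trans1 at 1 position, at 0.98 in coding footprints and at 0.46 without the highest position. In starvation trans2 over starvation RPLP1 stood at -0.31, RPL41 at -0.42, RPL38 at -0.13 and RPLP2 at 0.04. At the low end, RPS4X had 1988 and 2162 CPM, a ratio of -0.12 (-0.15 to -0.09), and RPL10A had 1171 and 1234 CPM, a ratio of -0.08 (-0.12 to -0.03). Ribosomal protein genes have many processed pseudogenes, and how the authors placed reads that match several copies was not given in the sources used here.

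These mRNAs were then divided by the first bases of their annotated transcripts. Many ribosomal protein mRNAs begin with a terminal oligopyrimidine tract, a C followed by a run of C or T, through which the mTORC1 pathway and LARP1 adjust their translation to nutrients. A start was counted as such a tract where an annotated RefSeq start (GRCh38.p14, gene strand) is C followed by at least 4 C or T. Among the 30 measured ribosomal protein mRNAs with an entry, 20 had such a start, and 10 did not. The sequences below, 30 bases each with 10 before the annotated start and 20 from it, are the 4 highest mRNAs with such a start and 4 of the 5 lowest without it, so that both kinds can be compared; capitals mark the unbroken run of C or T that begins at the annotated start.
RPLP1 (chr15:69452808-69452837, plus strand): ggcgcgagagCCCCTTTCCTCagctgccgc
RPLP2 (chr11:809957-809986, plus strand): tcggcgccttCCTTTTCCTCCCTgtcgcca
RPL41 (chr12:56116623-56116652, plus strand): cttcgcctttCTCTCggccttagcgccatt
RPL38 (chr17:74203668-74203697, plus strand): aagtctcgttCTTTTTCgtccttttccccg
RPS4X (chrX:72277229-72277258, minus strand): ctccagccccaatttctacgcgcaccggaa
RPL10A (chr6:35468391-35468420, plus strand): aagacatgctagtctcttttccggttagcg
RPL36AL (chr14:49620607-49620636, minus strand): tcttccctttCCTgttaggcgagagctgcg
RPL4 (chr15:66504836-66504865, minus strand): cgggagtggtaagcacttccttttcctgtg

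The 20 ribosomal protein mRNAs with a tract at the annotated start had a median log2 ratio of 0.43, with a range of 0.03 to 0.84, and all 20 were above 0. The 10 without it had a median of -0.01, a range of -0.12 to 0.47, and 5 above 0. In coding footprints the medians were 0.43 with the tract and 0.03 without it. RPL10A and RPL4 carry runs of pyrimidines a few bases after the annotated start, and the annotated start of RPL36AL lies inside a longer run. The division thus depends on where RefSeq places the start, and the start used in HEK293 was not measured here. With and without the tract, median coding length was 451.5 and 567 nt and median level in starvation 1981 and 1201 CPM. The 16 mRNAs with a tract at every annotated start had a median of 0.47, and the 4 with a tract at some of their starts one of 0.25. In starvation trans2 over starvation the medians were 0.11 with the tract and 0.09 without it, and in starvation over control they were -0.36 and -0.18; all of these comparisons share the starvation library. Among other named mRNAs, 140 with such a start had a median log2 ratio of -0.11 and 1903 without it one of -0.08. Median levels of these in starvation were 60.2 and 43.9 CPM, below those of the ribosomal protein mRNAs. Whether the tract bears on the ratio was not tested. Over all RefSeq promoter entries, 4.07% hold such a start, and of the named transcripts with an entry, 7.72%.

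**Figure D3:**
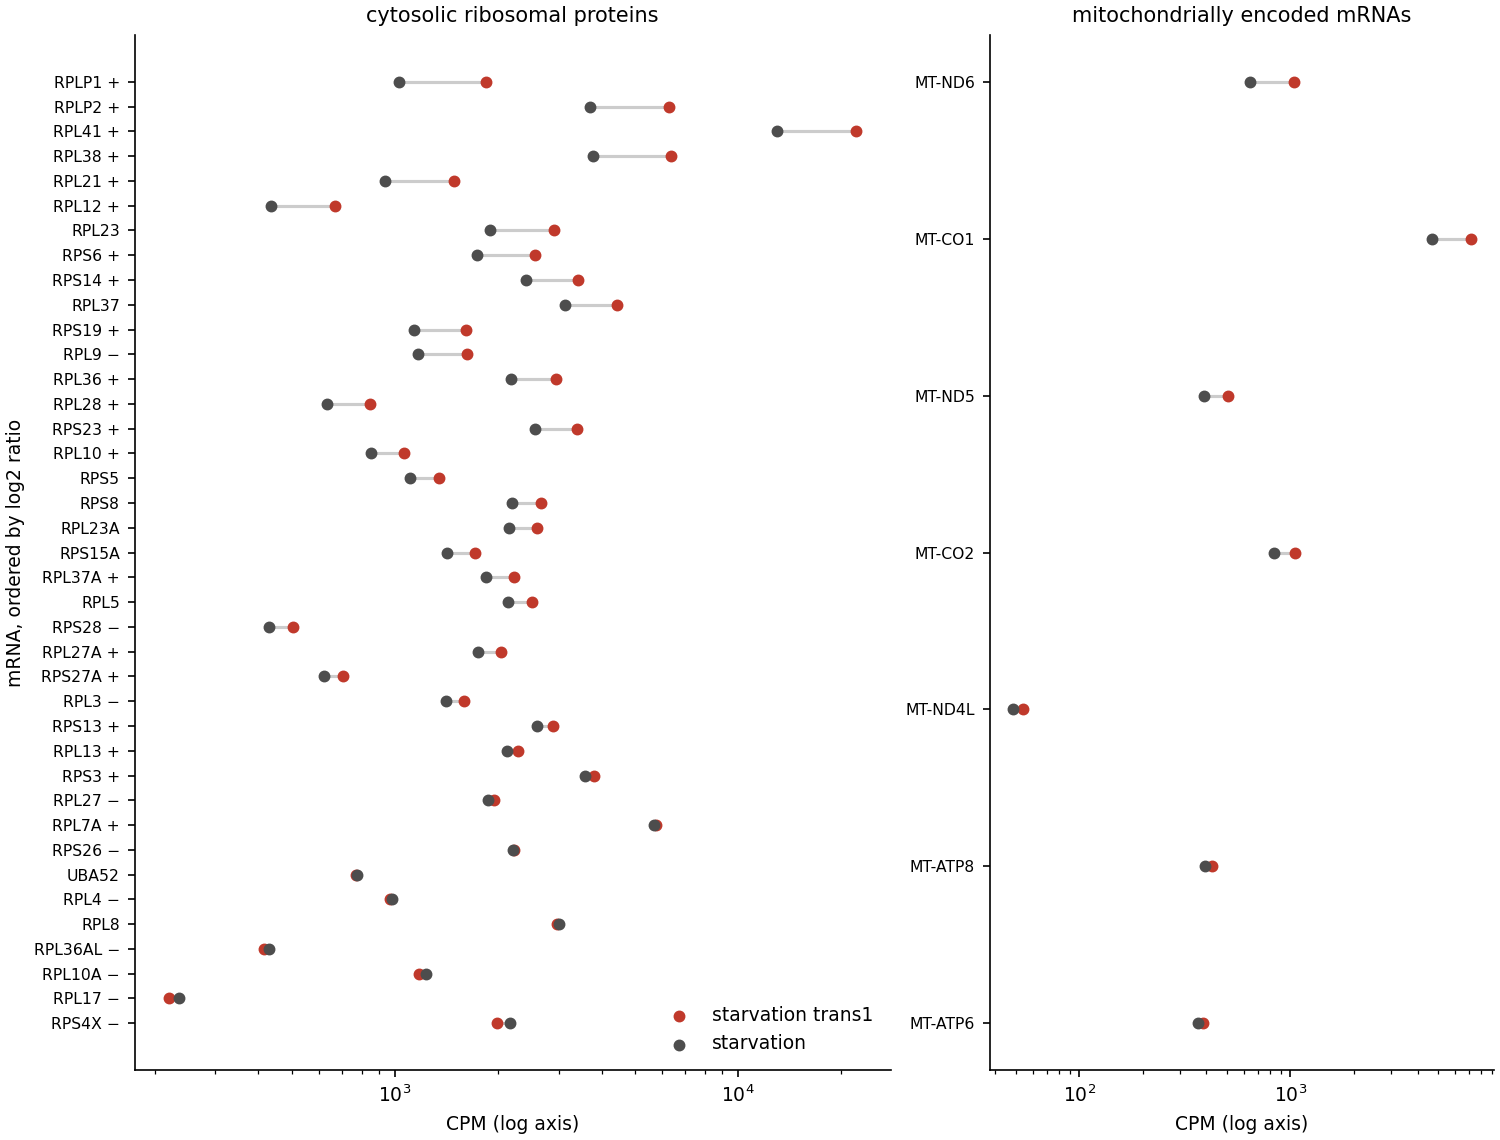
CPM on a log axis for each of 39 ribosomal protein mRNAs and 7 mitochondrially encoded mRNAs, ordered by log2 ratio, with starvation trans1 in red and starvation in grey. A plus marks an annotated start of C followed by at least 4 C or T, a minus an entry without it, and no mark an mRNA without an entry; RPS4X, RPL17 and RPL10A at the foot carry a minus.

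Mitochondrial protein synthesis and its nuclear-encoded partners stood on opposite sides of 0. Mitochondrial DNA encodes core subunits of the respiratory chain, which are made by mitochondrial ribosomes, while the other subunits and all mitochondrial ribosomal proteins come from nuclear genes. All 7 mitochondrially encoded mRNAs with a symbol were higher in starvation trans1, with a median log2 ratio of 0.32 and a range of 0.08 to 0.69; this list was drawn up after the values were seen. The median was 0.17 by coding footprints, with 6 of 7 above 0, and 0.13 by the start window, 0.15 by the stop window and 0.14 without each transcript's highest position. MT-CO1, a subunit of cytochrome oxidase, had 7155 CPM in starvation trans1 and 4689 CPM in starvation, a ratio of 0.61 (0.59 to 0.63), but -0.11 in its start window. MT-ND6, of complex I, had 1038 and 642 CPM, a ratio of 0.69 (0.64 to 0.75). MT-ND5 had 504 and 390 CPM, a ratio of 0.37 (0.30 to 0.44), and was at -0.01 in coding footprints. MT-ND6 lies on the strand opposite to MT-ND5, and MT-ATP8 and MT-ATP6 overlap, so their reads may not be fully told apart. The 7 together held 1.06% of reads in starvation trans1 and 0.736% in starvation, beside 1.11% in starvation trans2 and 0.984% in the control.

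Of 20 measured nuclear-encoded mRNAs of the respiratory chain and ATP synthase, 17 were lower and 3 higher, with a median of -0.27. ATP5F1A, the alpha subunit of ATP synthase, had 116 CPM in starvation trans1 and 175 CPM in starvation, a ratio of -0.59 (-0.72 to -0.46). NDUFV1, of complex I, had 184 and 275 CPM, a ratio of -0.58 (-0.68 to -0.48), and SDHB, of complex II, 221 and 330 CPM, a ratio of -0.58 (-0.67 to -0.49). ATP5F1B was at -0.54. The 3 higher mRNAs were the small subunits ATP5F1E (0.22), NDUFC2 (0.11) and UQCR10 (0.11). Of 16 mitochondrial ribosomal protein mRNAs, 15 were lower, with a median of -0.19, but 11 after centring or upper quartile scaling, with medians of -0.10 and -0.09; MRPL38 was at -0.42, MRPS16 and MRPL18 at -0.38. The exception was MRPL22 at 0.69 (0.61 to 0.78), at 0.17 in coding footprints. The TCA cycle enzymes IDH2 and MDH2 were at -0.31 and -0.24.

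Immediate early genes, which growth factors and stress switch on within minutes, had the highest median of the lists, 0.33 over 15 measured mRNAs, of which 12 were above 0. JUNB and FOSL1 were past 2-fold. JUN, the founding AP-1 subunit, had 1012 reads in starvation trans1 and 837 in starvation (168 and 90.8 CPM), a log2 ratio of 0.88 (0.75 to 1.02), and 0.54 in coding footprints. GADD45B, a stress-induced signalling protein, had 196 and 117 CPM, a ratio of 0.73 (0.62 to 0.86), and DUSP4, a phosphatase of MAP kinases, 13.5 and 7.37 CPM, a ratio of 0.79 (0.38 to 1.35). KLF6 went the other way, at -0.61 (-0.91 to -0.37). In starvation trans2 over starvation JUN stood at 0.80, GADD45B at 0.75 and FOSL1 at 0.41, so the other transfected library was also above the same starvation library for these 3.

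Transcription factors of development and factors that build ribosomes were also above the median of all transcripts. Of 18 homeobox and related developmental factors 12 were above 0, with a median of 0.21, against 0.10 by coding footprints or without the highest position and 0.11 by the stop window. SIX4 is given above, and HOXA7 had 130 reads in starvation trans1 and 103 in starvation, a log2 ratio of 0.89 (0.57 to 1.34), while MSX1 was at -0.42 (-0.66 to -0.21). SOX4 was at 0.37, but 96.1% of its window reads in starvation trans1 and 98.1% in starvation lay at 1 position. Of 11 ribosome biogenesis mRNAs, 8 were above 0, with a median of 0.17, against 0.09 by the start window and 0.01 by the stop window. WDR43, NOP58 and NOP56, which act in the early nucleolar steps of ribosome assembly, were at 0.48 (0.39 to 0.58), 0.43 (0.30 to 0.57) and 0.38 (0.29 to 0.47). The methyltransferase FBL, of the same particles as NOP56 and NOP58, was at -0.38 (-0.44 to -0.31), with 469 CPM in starvation trans1 and 610 CPM in starvation.

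**Figure D4:**
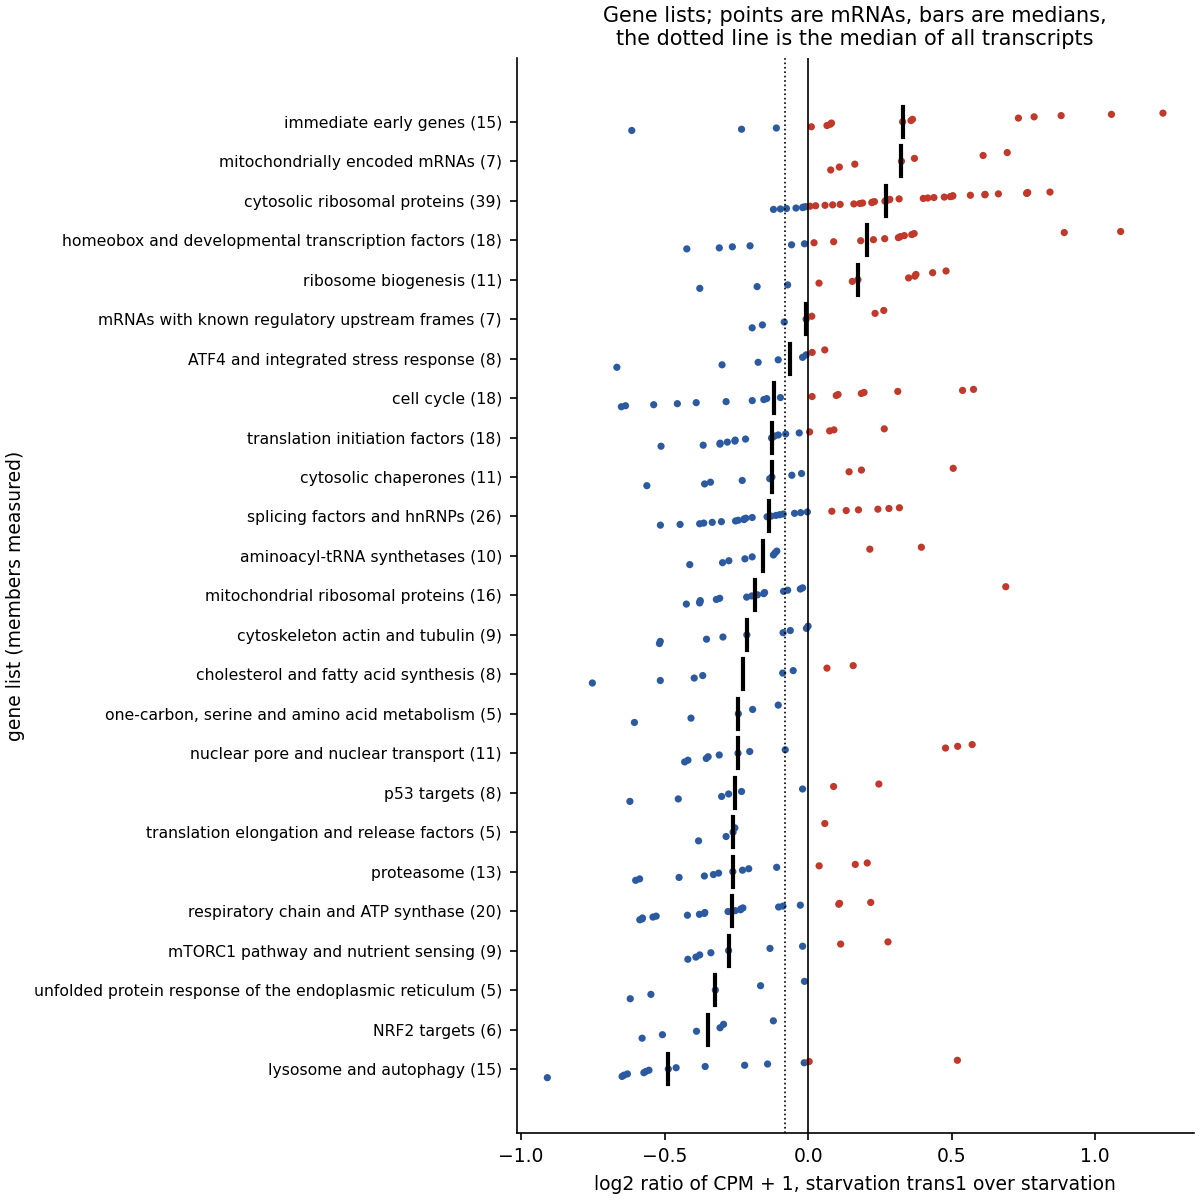
Log2 ratios of starvation trans1 over starvation for the measured members of the gene lists described in the text with at least 5 of them, red above 0 and blue below, with the list's median as a black bar and the median of all transcripts, -0.08, as a dotted line. Immediate early genes (0.33), mitochondrially encoded mRNAs (0.32) and ribosomal proteins (0.27) have the highest medians by all reads, and lysosome and autophagy (-0.49) the lowest.

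Lysosome and autophagy mRNAs had the lowest median of the lists by all reads, -0.49, with 13 of 15 measured members below 0. ATG9A, the membrane protein of autophagosome formation, had 120 reads in starvation trans1 and 353 in starvation, a log2 ratio of -0.91 (-1.25 to -0.64). The protease CTSB was at -0.63 (-0.84 to -0.44) and the proton pump subunit ATP6V0D1 at -0.64 (-0.94 to -0.39). MAP1LC3B, which coats autophagosomes, was at -0.65, with 58.2% of its window reads in starvation trans1 at 1 position. In coding footprints the median of the list was -0.31 and 14 of 15 members were below 0, and cholesterol and fatty acid synthesis (-0.48) and one-carbon metabolism (-0.37) had lower medians. By the stop window the median was -0.16. ATG14 was at 0.52 by all reads and at -0.24 by coding footprints.

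Stress and redox lists lay below 0 as well. All 6 measured NRF2 targets were lower, with a median of -0.35. The ferritin chains FTH1 and FTL were at -0.58 and -0.29, GCLC, which limits glutathione synthesis, at -0.51, the NADPH-forming enzymes PGD and ME1 at -0.39 and -0.31, and TXN at -0.12. Of the unfolded protein response, all 5 measured members were at or below -0.01: HYOU1 at -0.62, HERPUD1 at -0.55, DNAJB11 at -0.32, CANX at -0.17 and HSPA5 at -0.01. HYOU1, a chaperone of the endoplasmic reticulum, had 46 coding footprints in starvation trans1 and 208 in starvation, a log2 ratio of -1.48 by these footprints. After centring or upper quartile scaling, 1 of the 5 lay above 0.

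ATF4 target genes, which make and import amino acids, showed little difference as a list. Of 42 in the list 8 were measured, 2 above 0 and 6 below, with a median of -0.06, and 4 and 4 with ratios centred on the median or scaled to the upper quartile. ALDH18A1, of proline synthesis, had 227 reads in starvation trans1 and 557 in starvation (37.7 and 60.4 CPM), a log2 ratio of -0.67 (-0.91 to -0.46), and -0.93 in coding footprints. The amino acid transporters SLC38A2, SLC1A5, SLC7A5 and SLC7A1 were at -0.30, -0.17, 0.01 and 0.06, and PSPH, of serine synthesis, at -0.10. SESN2 and CEBPB were at -0.02 and -0.01. All 5 one-carbon and amino acid enzymes were below 0, with GLUD1 at -0.61, GLUL at -0.41, GOT1 at -0.24, OAT at -0.19 and PSPH as above. Of 7 mRNAs known for regulatory upstream frames, 3 were above 0, with CEBPA at 0.26, MIEF1 at 0.23, EPRS1 at -0.20 and AZIN1 at -0.16, and 5 were above 0 after either rescaling.

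Most lists of housekeeping machinery lay a little under the median of all transcripts. That median itself varied with level, and the lists were not matched for level. By mean CPM of both libraries, it was 0.02 under 10 CPM, -0.11 at 50 to 100 CPM, -0.13 at 100 to 500 CPM and -0.02 above. Of 13 proteasome mRNAs 10 were below 0 (median -0.26), with PSMB2 at -0.60 and PSMB3 at -0.59. All 9 cytoskeleton mRNAs were below 0 (median -0.21), ACTB at -0.52 and TUBB4B at -0.52, but only 6 after centring and 5 after upper quartile scaling. For 26 splicing factors and hnRNPs the median was -0.14 (20 below 0), and -0.22 by coding footprints, with HNRNPA0 at -0.51 and PRPF8 at -0.45. The 11 mRNAs of nuclear pores and transport had a median of -0.24, and -0.14 by coding footprints, with KPNB1 at -0.43 and the pore proteins NUP35, TPR and NUP205 at 0.57, 0.52 and 0.48. Initiation factors (18, median -0.13, EIF3B at -0.51), elongation and release factors (5, -0.26, HBS1L at -0.38 and EEF2 at -0.29), aminoacyl-tRNA synthetases (10, -0.16, NARS1 at -0.30) and mTORC1 and nutrient sensing (9, -0.28, SESN3 at -0.42) were alike in this.

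The remaining lists held smaller or mixed differences. Cytosolic chaperones (11) had a median of -0.13, with CCT5 at -0.56 and the inducible HSPA1B at 0.51. Cholesterol and fatty acid synthesis (8) had one of -0.23, with INSIG1 at -0.75 and DHCR7 at -0.52. This list was lower by other reads, at -0.48 by coding footprints (7 of 8 below 0) or without the highest position, -0.61 by the start window and -0.40 by the stop window. The p53 targets (8) had a median of -0.25, with DDB2 at -0.62. Cell cycle mRNAs (18) had a median of -0.12, with MCM4 at -0.65, CDK4 at -0.64 and CENPF at 0.58. Glycolysis had 3 measured members, GAPDH at -0.29, SLC2A3 at -0.23 and PGAM1 at -0.04, and interferon and innate sensing a pair, IRF1 at 0.64 and IFITM1 at -0.47.

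A change in the start window and in the stop window can be compared where both hold at least 30 reads in each library and do not overlap, as in 2413 transcripts. The start window's log2 ratio less the stop window's, each scaled to its own total, had a median of -0.06, with the middle 90% between -1.03 and 0.92. In starvation trans1, 84 transcripts (3.48%) gained at least 2-fold more, or lost less, in the start window, and 135 (5.59%) in the stop window. ENST00000674920 had by far the largest difference, 5.17, with 35296 and 1515 start window reads and 1022 and 1689 stop window reads in starvation trans1 and starvation.

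Among named mRNAs the start window gained most on ADAMTS1, a secreted protease, with 69 reads in starvation trans1 and 30 in starvation at the start and 77 and 140 at the stop, a difference of 1.97. EIF3A, the largest subunit of initiation factor eIF3, followed at 1.91, with 66 and 40 start reads and 281 and 685 stop reads. IMPA1 (1.69), TIMM44, CNP (1.40) and CD47 (1.37) came next. In the other direction stood ALKBH7, a mitochondrial dioxygenase, at -2.61, with 34 and 119 start reads and 67 and 41 stop reads. TFAM, which packages and transcribes mitochondrial DNA, had 131 and 473 start reads and 853 and 1028 stop reads, a difference of -1.68. PPTC7 (-1.82), RRP1 (-1.73), MARCHF6 (-1.66) and WASF2 (-1.62) were the others, and on MARCHF6 79.0% of window reads in starvation trans1 lay at 1 position. All but TFAM and CD47 rest on fewer than 300 start window reads in each library.

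Over all transcripts mean density peaked at the same places in both libraries, 12 nt before the start codon and 18 nt before the end of the stop codon. At these positions ribosomes with the start or stop codon in place leave the beginning of their footprint. Mean density, each transcript's own mean being 1, was 7.23 in starvation trans1 and 7.74 in starvation at the start peak. At the stop peak it was 11.2 in both. In starvation trans1 a larger share of footprints lay 3 nt before the start codon, with a mean density of 4.46 against 3.35 in starvation, and of 4.29 against 3.29 among transcripts with at least 10 CPM in both libraries. The transcript with most reads there supplied 20.5% of them in starvation trans1 and 23.8% in starvation. As a share of pooled start window reads this position held 1.71% in starvation trans1 and 1.28% in starvation. Position -12 held 1.32% and 1.65%, so by pooled share starvation trans1 was higher at -3 than at -12. Of the reads at -3, ENST00000674920 had 4733 of 47536 in starvation trans1 and 56 of 52877 in starvation. Reads at -3 were found on 1899 transcripts in starvation trans1 and on 2160 in starvation. Over the transcripts listed in all 4 libraries position -3 held 1.09% of pooled start window reads in starvation trans2 and 1.05% in the control. Just before the end of the stop codon, at position -12, mean density was 0.453 in starvation trans1 and 0.207 in starvation, and both are low beside the peak. Of coding footprints in the windows, 85.7% lay in frame 0 in starvation trans1 and 88.4% in starvation, beside 86.1% in starvation trans2 and 87.6% in the control.

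**Figure D5:**
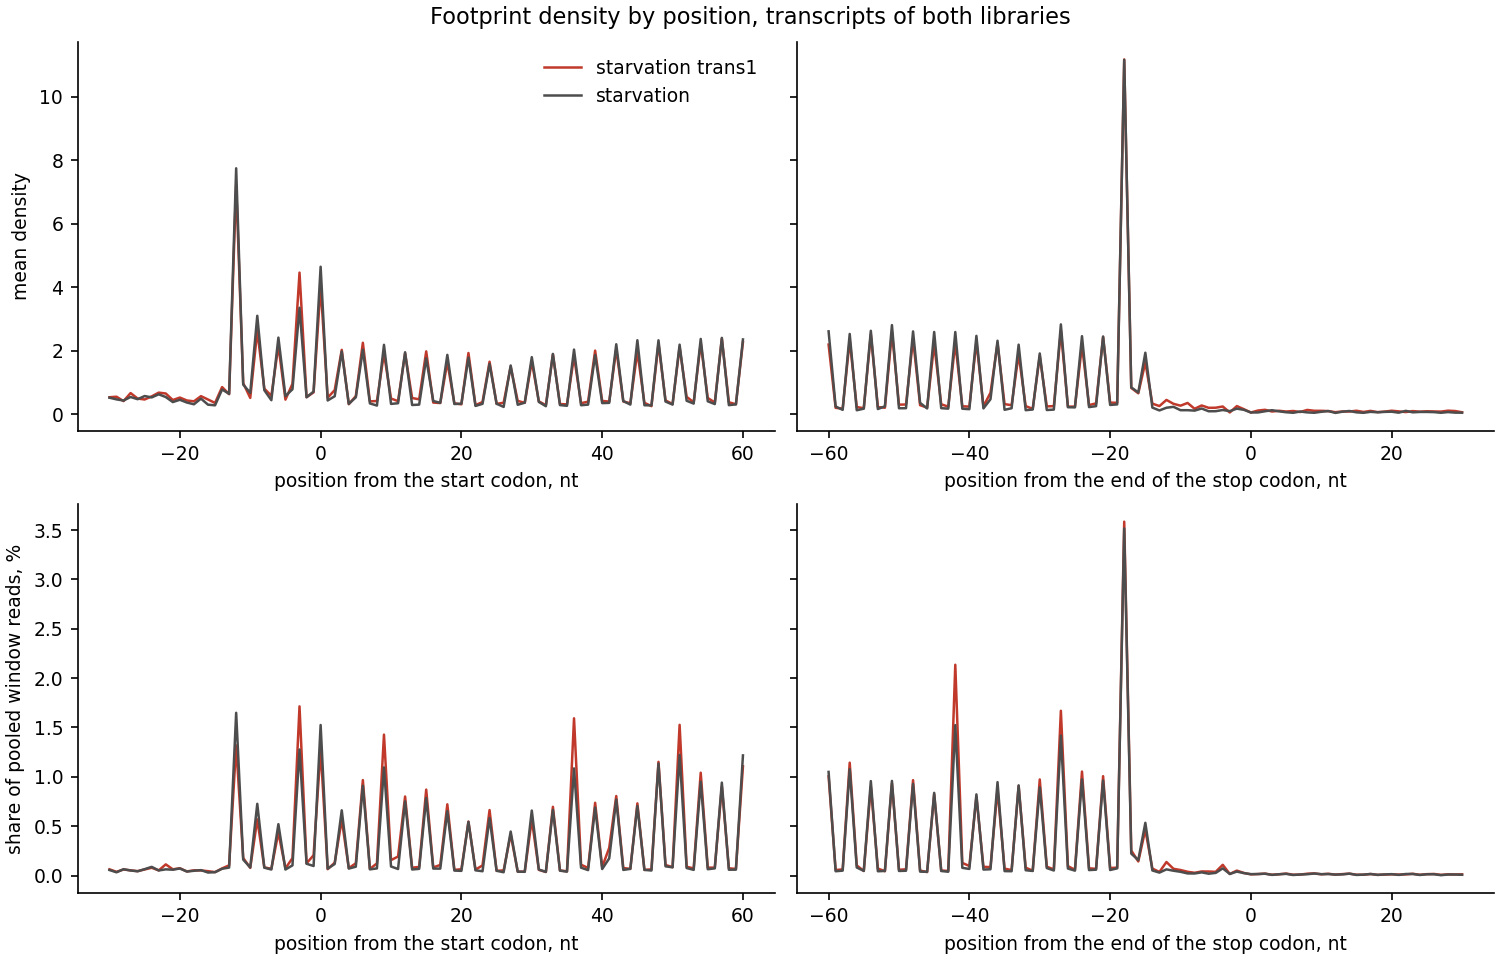
Mean density (upper panels) and share of pooled window reads (lower panels) by position from the start codon (left) and from the end of the stop codon (right), in starvation trans1 (red) and starvation (grey). In mean density both libraries peak at -12 and -18 nt, and starvation trans1 is higher than starvation at 3 nt before the start codon. By pooled share starvation trans1 holds 1.71% at -3 and 1.32% at -12, and starvation 1.28% and 1.65%.

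The authors' deposited table of log2 fold changes for reading frames gives the same comparison by frame rather than by transcript, and a positive value was taken as higher in starvation trans1. In the authors' deposited table the median over 2118 coding frames was -0.48, with a range of -1.31 to 0.48, so most of its values lie below 0, and its scaling was not given in the sources used here. No coding frame (0%) was at least 2-fold higher in the authors' deposited table and 35 (1.65%) were at least 2-fold lower. Upstream frames that run into the coding frame numbered 1581 in the authors' deposited table. Of these, 8 were past 2-fold on the higher side and 151 on the lower, and the highest value was 5.31. Of the same 1581 frames 8.48% lay above 0, beside 13.4% of all frames in the authors' deposited table. The 8 lie on ENST00000404241, ENST00000680748, ENST00000679776 and ENST00000675582. Values such as 5.31 repeat between these transcripts, so the 8 are not separate observations. Over all 41748 frames of the authors' deposited table, 295 were at least 2-fold higher and 3171 at least 2-fold lower. Upstream frames that end earlier numbered 6143 in the authors' deposited table, with a median of -0.33, 41 at least 2-fold higher and 675 lower. Of these 6143 frames, 18.7% lay above 0.

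For 813 transcripts with both values, the median was -0.49 in the authors' deposited table and -0.14 by recovered reads. The named coding frames with the highest values in the authors' deposited table were RPLP1 at 0.16 and RPL41 at 0.13, and the lowest were the peroxiredoxin PRDX4 at -1.16 and the histone H3C2 at -1.15. Of 20 ribosomal protein coding frames in the authors' deposited table, 14 lay above the median of those 813, and of 10 of the respiratory chain, 2. In the authors' deposited table mitochondrial ribosomal proteins had 4 coding frames, of which 3 lay above that median, with a median of -0.31, where the same 4 had a median of -0.08 by recovered reads.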

How the data were processed

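The authors deposited, per the file headers, a signal (ribosome density) per position from 30 nt before to 300 nt after the start codon and likewise around the stop codon, for each transcript. STAR 2.7.10a, Bowtie 1.2.3, cutadapt 2.8, bcl2fastq 2.20.0.422 and the mouse build GRCm39 are listed in the submitters' processing notes; the transcript IDs are human. Any offset applied to footprints was not given in the sources used here. The authors' deposited fold table holds log2 values, and the deposited peak lists hold counts, used here only because they pair 5778 transcript IDs with symbols.

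Within 1 transcript and library all densities are whole multiples of length divided by reads. Reads were recovered for transcripts with reads at 8 or more positions in both libraries, and all came out whole within 0.001 reads. The length is the shortest multiple of 3 that fits all libraries. A longer true length would multiply the reads of all libraries alike, so ratios hold while levels and counting intervals would change. Recovered totals take in reads outside the windows. Coding footprints are reads from 15 nt before the start codon to 15 nt before the end of the stop codon, inside the windows. The windows held 68.3% of recovered reads in each library. Among 1746 transcripts held whole by the windows, the median share of reads outside these coding positions was 13.9% in starvation trans1 and 12.4% in starvation. That share was over 50% on 417 of them in starvation trans1 and on 415 in starvation. The log2 ratio by all reads counts such reads too.

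All 8709 transcripts passed a filter of 1 CPM in at least 1 library. At least 2-fold is a rule of size, not a test, and intervals are exact binomial (Clopper-Pearson, 95%). Such intervals leave out the spread between cultures. They treat reads as separate molecules, which need not hold without molecular identifiers, so they may be too narrow. Named genes were the 15 highest and 15 lowest with a symbol, at least 10 CPM in 1 library and no position above 50% of window reads, histones left out; every member of lists with up to 6 measured; per list the 4 largest ratios; and 6 at each end of start less stop. Further list members named in the text were chosen after their values were seen, as were the list of mitochondrially encoded mRNAs, the coding footprints and the division by start. The members, gene lists and rules were chosen with earlier results of these data known. The recovery and the 2-fold rule were run on data simulated from the starvation library, with an outcome not reported here. Only transcripts long enough for separate start and stop windows entered, so shorter ones were not covered. Values were computed with Python 3.11.15, numpy 2.4.6, pandas 2.3.3 and scipy 1.17.1. The other fold tables, the reading frame lists and the liver tables were not used here. Some items of the lists are not reported here.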

Additional observations from a re-analysis of the deposited data

How the results depend on the processing

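With 1 library on each side no library can be left out. No paired analysis was possible because each group holds 1 library and no test was run. The rule of 8 or more positions was planned as an alternative and became the main rule, because with fewer positions the recovered reads are only lower limits; the looser rule was added as the alternative. All transcripts passed the 1 CPM filter.

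The counts of transcripts at least 2-fold higher and lower, 77 and 54, depended on the reads counted. They were 380 and 566 by start window reads, 385 and 739 by stop window reads, 223 and 288 without each transcript's highest position and, added after seeing the data, 207 and 258 with coding footprints. Fewer reads per transcript enter each of these. A pseudocount of 5 CPM gave 26 and 9, a threshold of 1.5-fold gave 465 and 596, and keeping transcripts with fewer positions, added after seeing the data, gave 131 and 118. Scaling to the upper quartile gave 117 and 33 and centring on the median 113 and 34, so that 78.0% and 76.9% of calls were higher, against 58.8% as reported. The median of all transcripts was -0.13 and -0.16 by the start and stop windows, -0.0943 without the highest position, -0.10 by coding footprints, -0.0728 with a pseudocount of 5 CPM, -0.0685 without RPL41 in the totals (added after seeing the data), 0.00534 after centring and 0.0138 after upper quartile scaling.

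Direction turned for TBC1D17 (-1.78 by the stop window, -0.30 without the highest position, -0.36 by coding footprints), DTX4 (-1.28 by the start window, -0.24 by the stop window, -0.90 without the highest position, -0.76 by coding footprints) and, by the stop window, for CHD2 (-0.71), CENPI (-0.16), ENST00000674920 (-0.13) and ENST00000348159 (-0.65); the cause was not tested. The median of ATF4 targets was 0.02 after centring and 0.03 after upper quartile scaling, that of mRNAs with upstream frames 0.08 and 0.09 and that of HEK293 markers 0.03 and 0.03. By coding footprints the medians of aminoacyl-tRNA synthetases and of the interferon pair were 0.01 and -0.15, against -0.16 and 0.09 by all reads. The median start less stop difference was -0.0938 with at least 100 reads per window and -0.0273 away from start and stop codons. Transcripts that differ 2-fold between windows numbered 881 with at least 10 reads per window and 22 with at least 100, against 219 of 2413. The number of transcripts that qualify changes with this minimum, so these counts do not show whether the share rose or fell. In the authors' deposited table, 719 coding frames were at least 1.5-fold lower, against 35 at 2-fold.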

Other observations

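The 1245 transcripts with 2400 or more coding nt had a median log2 ratio of 0.05, and the 4 shorter length classes had medians from -0.13 to -0.07, in no order of length. By coding footprints the median was 0.07 at 2400 nt or more and from -0.16 to -0.08 in the shorter classes. Over the 8633 transcripts with a read number in all 4 libraries, 74 were at least 2-fold higher and 53 lower in starvation trans1 over starvation, 100 and 10 in starvation trans2 over starvation, and 182 and 126 in starvation over control. Each of these comparisons shares the starvation library.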
